A study of Mus musculus with 2 samples.

Results

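The data described here concern 8 genes of hormone response in the mouse mammary epithelium, namely the receptors for oestrogen (Esr1), progesterone (Pgr) and prolactin (Prlr), and the luminal genes Cited1, Ly6d, Prom1, Wnt4 and Tnfsf11. They were chosen by name from a table of 27998 genes, and their values were compared between basal and luminal cells, among luminal cells, and between 2 libraries. Single cells were sequenced from epithelium that was rebuilding in the cleared mammary fat pads of female nude mice, which were 3 weeks old at surgery and were dissected 5 days later. Nude hosts lack most T cells but keep B cells, natural killer cells and myeloid cells, and they supplied the fat pad stroma. In both groups the basal donor cells had been exposed to an adenovirus carrying Cre and GFP. These basal cells were Fgfr2+/+ in the group called Ctrl and had lost the fibroblast growth factor receptor gene Fgfr2 (Fgfr2∆/∆) in the group called Fgfr2 KO. They were mixed with red fluorescent luminal cells from wild-type R26R mTmG donors that had not met Cre, so in both groups the luminal donor cells carried intact Fgfr2. Each group was 1 droplet library, and how many transplants it came from is not given in the sources used here. No test between the groups was therefore possible, and every interval below is a 95% interval for counting error alone.

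Oestrogen and progesterone act on the mammary epithelium through nuclear receptors, and prolactin acts through a receptor at the cell surface that signals by the transcription factor Stat5a. In the adult gland these receptors mark a set of mature luminal cells, the hormone-sensing cells, which pass the signal to their neighbours with secreted factors. Wnt4 and the cytokine RANKL, encoded by Tnfsf11, are the factors known for carrying the progesterone signal to basal and progenitor cells, and Areg, an epidermal growth factor receptor ligand, carries the oestrogen signal.

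The Ctrl library held 268 cells with 5458515 unique molecular identifiers (UMIs, each standing for 1 captured RNA molecule), and the Fgfr2 KO library held 86 cells with 1253032 UMIs. No cell barcode was shared between them. Cells without a UMI of Ptprc, the gene for the leukocyte antigen CD45, numbered 195 in Ctrl and 63 in Fgfr2 KO. The study's own CD45 filter, whose threshold is not given in the sources used here, left fewer cells in both libraries, so the cells described here are not the same set. A cell was placed in the luminal keratin class when its Krt8 and Krt18 UMIs outnumbered those of Krt14 and Krt5, and in the basal keratin class in the opposite case. This gave 117 luminal and 68 basal keratin cells in Ctrl, and 31 luminal and 22 basal keratin cells in Fgfr2 KO. The median depth of the luminal keratin cells was 20160 UMIs in Ctrl and 15029 UMIs in Fgfr2 KO. Levels are given as CPM, the share of all UMIs scaled to 1000000, after summing the cells of a class within a library, and a level was called higher or lower when it differed by at least 2-fold in a gene with at least 20 UMIs in the compared cells together.

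The keratin classes carried the markers of their names, although the luminal class held cells of other kinds as well. A list of luminal markers reached 8334 CPM in luminal and 2144 CPM in basal keratin cells of Ctrl, and 6035 against 1327 CPM in Fgfr2 KO, in both cases with the class keratins counted. The pan-epithelial gene Epcam was detected in 105 of 117 luminal keratin cells of Ctrl but in 21 of 31 of Fgfr2 KO. In addition, 19 of 117 and 11 of 31 luminal keratin cells had fewer than 10 keratin UMIs. Immune markers summed to 997 CPM in the luminal keratin cells of Ctrl and 1256 CPM in those of Fgfr2 KO, with the T cell genes Cd3e and Cd3d at 0 in both, and fibroblast markers summed to 1719 and 613 CPM. Low-keratin cells were thus a greater share of the shallower Fgfr2 KO class, while fibroblast markers were higher in the Ctrl class, and the ratios of the 8 genes, but not those of the related lists, were repeated without the low-keratin and marker-positive cells. At least 10 GFP UMIs were found in 3 luminal keratin cells of Ctrl and 6 of Fgfr2 KO. By the design GFP marked the basal donor cells, and the study reports Fgfr2-null basal cells that became luminal in transplants. The class may thus hold cells of basal donor origin, which was not tested. Without the GFP-high cells, the Fgfr2 KO luminal keratin class held 559 of its 845 UMIs of the 8 genes.

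The targeted gene did not separate the libraries. Fgfr2 stood at 32.4 CPM (23.4 to 43.8, 42 UMIs) in the basal keratin cells of Ctrl and 21.9 CPM (8.81 to 45.1, 7 UMIs) in those of Fgfr2 KO, a log2 ratio of -0.57 (-1.96 to 0.60). The droplet reads come from transcript ends, and whether they fall within the deleted part is not given in the sources used here, so this value does not check the deletion.

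In Ctrl, the 7 genes of the set that were detected were all higher in luminal than in basal keratin cells. Their median log2 ratio was 2.38, against 0.12 over the 9838 genes with enough UMIs, of which 9.65% were called higher and 5.07% lower. Prlr and Cited1 stood farthest apart between the classes, and Ly6d and Wnt4, which basal cells also contained, stood closest. Prlr was in the marker panel that the study drew for luminal cells of these libraries, so its direction is not independent evidence. The levels of the genes by class and library are drawn in the plot of summed UMIs.

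Prlr, on mouse chromosome 15, had 633 UMIs in the luminal keratin cells of Ctrl, or 225 CPM (207 to 243), and 15 UMIs, or 11.6 CPM, in the basal keratin cells. Its log2 ratio was 4.28 (3.55 to 5.12). A Prlr UMI was found in 60 of 117 luminal keratin cells (51.3%) and in 20.6% of basal keratin cells. Among CD45-positive cells, where free RNA is a possible source of such UMIs that was not measured, the share was 20.5% at a median depth of 12228 UMIs. These cells were not free of epithelium, since 25 of 73 had an Epcam UMI, so their shares are set beside the others as a comparison and not as a pure background. The basal share lay at the CD45-positive share, and the luminal share lay above it. When every cell was thinned to 6265 UMIs, the luminal share was 37.6%.

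The steroid receptors were detected with far fewer UMIs than Prlr. Esr1 had 59 UMIs in the luminal keratin cells of Ctrl, or 20.9 CPM (15.9 to 27.0), and 7 UMIs, or 5.40 CPM, in basal keratin cells, a log2 ratio of 1.95 (0.82 to 3.33). It was found in 34 of 117 luminal keratin cells (29.1%) against 4.11% of CD45-positive cells, and 1 luminal cell held 12 of its UMIs. Pgr had 79 UMIs, or 28.0 CPM (22.2 to 34.9), in luminal keratin cells and 7 UMIs in basal keratin cells, a log2 ratio of 2.38 (1.27 to 3.74). Its share was 27.4% of luminal keratin cells against 8.22% of CD45-positive cells. Both receptors were thus above the CD45-positive share in the luminal class, in less than 1 cell in 3, a share that depends on depth because it came to 11.8% for Esr1 and 12.5% for Pgr after thinning.

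Cited1 encodes a transcriptional coregulator that binds the oestrogen receptor. It had 553 UMIs in the luminal keratin cells of Ctrl, or 196 CPM (180 to 213), against 7 UMIs in basal keratin cells, a log2 ratio of 5.18 (4.13 to 6.50). Its share of cells was 41.9%, and 13.7% among CD45-positive cells. Prom1, which encodes the surface protein prominin-1 (CD133) used to sort hormone-sensing cells, stood at 20.9 CPM (15.9 to 27.0) in luminal and 2.32 CPM in basal keratin cells, a log2 ratio of 3.18 (1.56 to 5.49). It was detected in 24.8% of luminal keratin cells, and CD45-positive cells held 1 Prom1 UMI in all.

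Ly6d and Wnt4 were shared between the classes to a greater degree. Ly6d, a GPI-anchored surface protein of the Ly6 family, had 928 UMIs or 329 CPM (309 to 351) in luminal and 205 UMIs or 158 CPM (137 to 181) in basal keratin cells of Ctrl, a log2 ratio of 1.06 (0.84 to 1.28). This was just past the 2-fold call, and at 1.99-fold it was short of it when mitochondrial and ribosomal protein genes were left out of the totals. It was detected in 61.5% of luminal and 50% of basal keratin cells, against 23.3% of CD45-positive cells, although 1 basal cell held 69 of the 205 UMIs. Wnt4, the secreted Wnt ligand, stood at 108 CPM (96.4 to 121) in luminal and 36.3 CPM (26.7 to 48.3) in basal keratin cells, a log2 ratio of 1.58 (1.13 to 2.05). Its basal share was 30.9% before and 13.9% after thinning, and its CD45-positive share was 12.3% before and 4.88% after. In Ctrl the Wnt4 RNA of basal keratin cells was thus above the level in CD45-positive cells, 10.4 CPM.

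Tnfsf11 had 0 UMIs in every cell of both libraries. In luminal keratin cells this allows a level of up to 1.06 CPM and a share of up to 2.56% of cells with a UMI in Ctrl, and up to 4.86 CPM and 9.68% in Fgfr2 KO. RANKL RNA was thus not detectable at this depth in cells that did contain Pgr RNA.

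**Figure D1:**
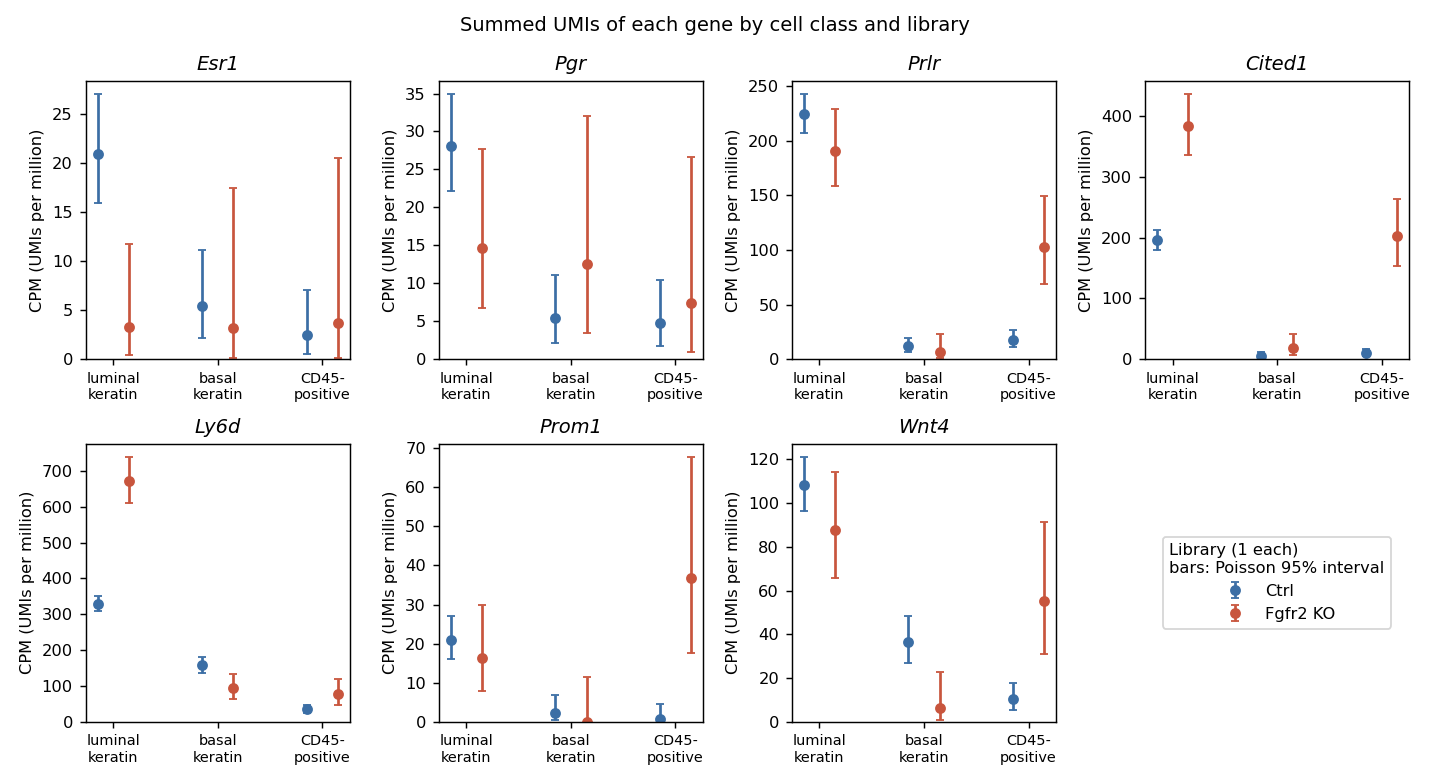
Level of each detected gene (CPM) in luminal keratin, basal keratin and CD45-positive cells of Ctrl (blue) and Fgfr2 KO (red), 1 library each, with 95% Poisson intervals. Prlr stands at 225 and 191 CPM in the luminal keratin cells of Ctrl and Fgfr2 KO and at 11.6 and 6.26 CPM in the basal keratin cells, whereas Ly6d and Wnt4 of Ctrl reach 158 and 36.3 CPM in basal keratin cells.

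The Fgfr2 KO library showed the same order of classes for the genes with enough UMIs. The 4 genes that reached 20 UMIs, Prlr, Cited1, Ly6d and Wnt4, were all higher in luminal keratin cells. Over 5174 genes, 14.1% were called higher and 7.23% lower. Prlr, Cited1 and Wnt4 reached 20 UMIs only through the luminal class, so the filter favoured their direction. The median log2 ratio of the 4 genes was 4.08, against 0.16 over all genes with enough UMIs. Prlr stood at 191 CPM (158 to 229) in luminal keratin cells, with 118 UMIs, and at 6.26 CPM in basal keratin cells, with 2 UMIs, a log2 ratio of 4.93 (3.05 to 8.0). Cited1 reached 384 CPM (337 to 436) against 18.8 CPM, Ly6d 673 CPM (609 to 740) against 93.9 CPM, and Wnt4 87.5 CPM (65.7 to 114) against 6.26 CPM. A 3-fold keratin excess kept 20 of 22 basal keratin cells, and basal Ly6d fell from 30 to 7 UMIs, or 25.2 CPM. Pgr had 9 UMIs in luminal and 4 in basal keratin cells, 14.6 (6.67 to 27.7) against 12.5 CPM, which did not separate the classes. Without GFP-high cells it had 8 and 1 UMIs, a log2 ratio of 2.42 (-0.48 to 7.89). Esr1 had 2 UMIs in luminal and 1 in basal keratin cells. Prom1 had 10 UMIs in luminal keratin cells and 0 in basal keratin cells, at least 1.73-fold higher in the luminal class at a floor of 3 UMIs. The CD45-positive cells of this library held 27 of their 28 Prlr UMIs and 51 of their 55 Cited1 UMIs in 1 cell, so their summed levels describe that cell.

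Of 16 other receptors for hormones, 11 had enough UMIs in Ctrl. None was called higher in luminal keratin cells and 2 were lower, where 9.65% and 5.07% of all genes were, with a median log2 ratio of -0.19. The lower ones were Oxtr, the oxytocin receptor through which myoepithelial cells contract, with 49 UMIs in basal and 10 in luminal keratin cells (log2 ratio -3.41, -4.56 to -2.42), and Ghr, the growth hormone receptor, with -1.28 (-1.99 to -0.58). Of 4 with enough UMIs in Fgfr2 KO, 1 was higher and 1 was lower. The higher one was the thyroid hormone receptor gene Thra, with 19 UMIs in luminal and 4 in basal keratin cells, and the lower one was Oxtr, with 0 and 23. Rarg, a retinoic acid receptor, had the most UMIs of these genes in the luminal keratin cells of Ctrl, 35.5 CPM against 23.2 CPM in basal keratin cells and a log2 ratio of 0.62 (0.01 to 1.26).

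The partners and targets of the receptors were mixed. Of 26 listed, 20 had enough UMIs in Ctrl, 4 were higher and 1 was lower in luminal keratin cells. Over all genes, 9.65% were called higher and 5.07% lower, which applies to each list here. The 1 lower gene lay near that share. Areg reached 602 CPM (573 to 631) against 11.6 CPM in basal keratin cells, a log2 ratio of 5.70 (4.97 to 6.54). Foxa1, the pioneer factor that opens chromatin for the oestrogen receptor, reached 86.2 CPM against 4.63 CPM, a log2 ratio of 4.22 (3.08 to 5.68). Stat5a and the transcriptional repressor Tbx3 had smaller log2 ratios of 1.39 (0.53 to 2.36) and 1.45 (0.59 to 2.42), and Fzd1, a Wnt receptor, was lower with -1.04 (-2.05 to -0.03). The 8 markers of hormone-sensing cells repeat Areg, Foxa1 and Tbx3 from the list above. Of the 8, 6 were higher in luminal keratin cells, including the repeated genes and Stc2, a secreted glycoprotein, at 71.3 against 6.95 CPM. Ly6a, which encodes the surface antigen Sca-1, was not, with 914 against 859 CPM and a log2 ratio of 0.09 (-0.01 to 0.19). Of 9 luminal progenitor and alveolar markers with enough UMIs, 7 were higher as well, including the casein gene Csn3 at 456 against 172 CPM, Elf5, the alveolar transcription factor, with 2.77 (1.48 to 4.43) and Cd14 with 2.93 (2.33 to 3.59). The luminal keratin class thus held RNA of both kinds of luminal cell, and the 8 genes were next examined cell by cell.

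In Ctrl, 72 of 117 luminal keratin cells (61.5%, 52.1 to 70.4) had a UMI of Esr1, Pgr or Prlr. The share was 32.4% of basal keratin cells and 28.8% of CD45-positive cells, and after thinning to 6265 UMIs it was 43.9%, 12.3% and 14.9% respectively. Cells with a receptor UMI were deeper, with a median of 22669 against 18325 UMIs, and 8 luminal keratin cells were too shallow to thin. Counting the detected genes of the set in each of the 117 cells, 20 cells had none, 19 had 1, 14 had 2, 25 had 3, 5 had 4, 22 had 5, 8 had 6 and 4 had 7. The counts in Ctrl dipped at 4 genes, between cells with few and cells with most of the set. In Fgfr2 KO, 13 of 31 luminal keratin cells (41.9%, 24.5 to 60.9) had a receptor UMI, the median depths were 24964 with and 10196 without, and the thinned share was 37.5%. Of these 31 cells, 10 had none of the genes, 2 had 1, 8 had 2, 4 had 3, 3 had 4, 1 had 5 and 3 had 6, with no dip at 4. The 10 cells with none had at most 4 keratin UMIs each, so their class is uncertain. With at least 10 keratin UMIs, the receptor share was 69.4% in Ctrl (68 of 98) and 60% (36.1 to 80.9) in Fgfr2 KO (12 of 20).

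**Figure D2:**
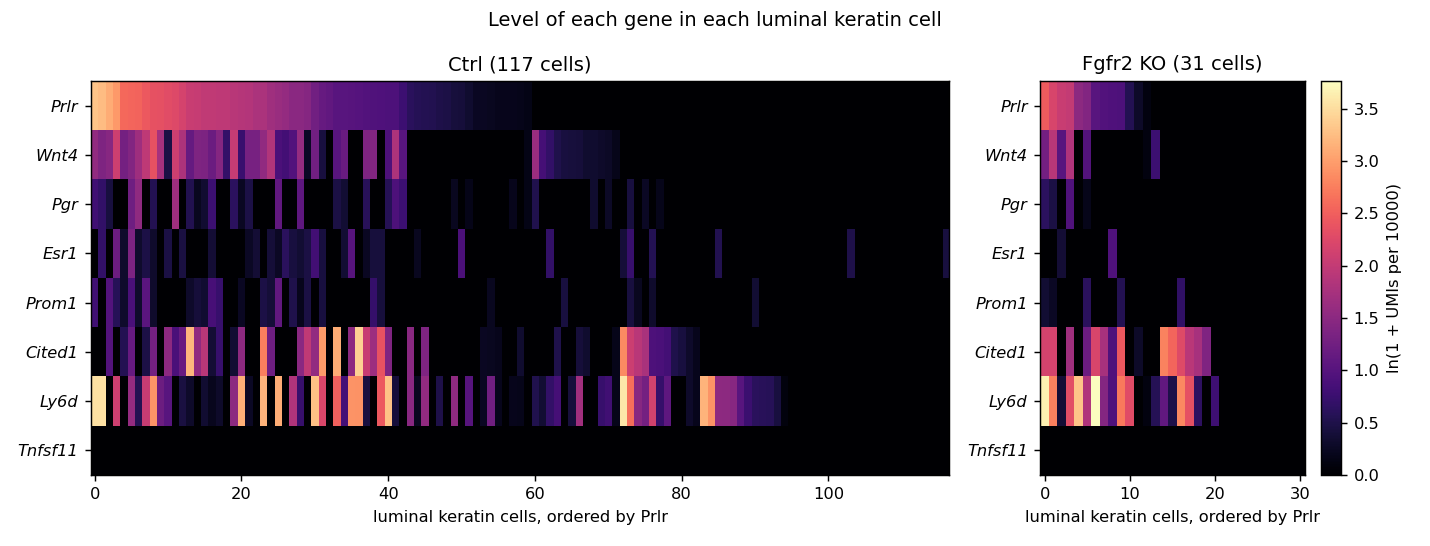
Level of each of the 8 genes (rows, ln of 1 + UMIs per 10000) in each luminal keratin cell (columns, ordered by Prlr) of Ctrl (117 cells, left) and Fgfr2 KO (31 cells, right). Prlr and Wnt4 fill many of the same columns, with 40 cells holding both in Ctrl and 6 in Fgfr2 KO, and the Tnfsf11 row is empty.

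Within the luminal keratin cells, Prlr and Wnt4 occurred in the same cells. To keep cells of uncertain class out, this was counted in the 98 Ctrl and 20 Fgfr2 KO cells with at least 10 keratin UMIs. Of these 98 cells, 57 held Prlr, 52 held Wnt4 and 40 held both, where the separate shares multiply to 30.2. Wnt4 was found in 70.2% of cells with Prlr and in 29.3% of cells without. After thinning, 28.7 of 96 cells held both on average, against 14.9 from the separate shares, so the overlap still exceeded the separate shares at even depth. The Pearson correlation of their log levels was 0.81 over the 98 cells, and it was 0.77 over the 20 Fgfr2 KO cells, of which 6 held both. These correlations are descriptions, since the cells of a library share their transplants and their depths differ.

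Pgr was also found with both genes. Pgr and Wnt4 were both found in 26 of the 98 cells, where the separate shares give 17.0, with r = 0.56. Pgr and Prlr were also both found in 26, with r = 0.48. In Fgfr2 KO, each of the 4 cells with Pgr held Prlr and Wnt4, but also Cited1 and Ly6d, and r was 0.84 for Pgr and Wnt4. Esr1 and Prlr were both found in 26 cells with r = 0.41, and Prlr and Prom1 in 24 cells with r = 0.57. Esr1 and Pgr, the receptor and its classical target gene, were both found in 11 of the 98 cells, where the separate shares give 10.4, with r = 0.13. At a few UMIs per cell, so weak a correlation shows neither presence nor absence of a link.

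Cited1 and Ly6d were less tightly joined to each other and to these genes. They were both found in 39 of the 98 Ctrl cells, where the separate shares give 33.8, with r = 0.41. After thinning, 20.2 cells held both on average against 14.8 from the separate shares. Prlr and Cited1 were both found in 34 cells against 27.9, and in 21.0 against 13.6 after thinning, with r = 0.25. Cited1 and Prom1 were both found in 22 cells against 13.7, with r = 0.23. By shared detection in Ctrl, Cited1 thus went with Prlr and Prom1 as it did with Ly6d, although its log levels followed Ly6d more closely. The values of r were 0.15 for Cited1 and Wnt4 and 0.12 for Ly6d and Wnt4. In the 20 Fgfr2 KO cells, Cited1 and Ly6d were both found in 12 cells where the separate shares give 12.6, with r = 0.38, and r was 0.53 for Prlr and Ly6d. Prlr and Cited1 were both found in 8 of these cells against 8.4, with r = 0.05. Cited1 and Prom1 were both found in 5 against 3.5, with r = 0.37. Of the 98 cells, 18 held Prlr, Wnt4, Cited1 and Ly6d, 22 held Prlr and Wnt4 without both of the others, 21 held Cited1 and Ly6d without both of the first, and 37 held neither combination. In Fgfr2 KO the corresponding numbers were 4, 2, 8 and 6 of 20 cells.

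**Figure D3:**
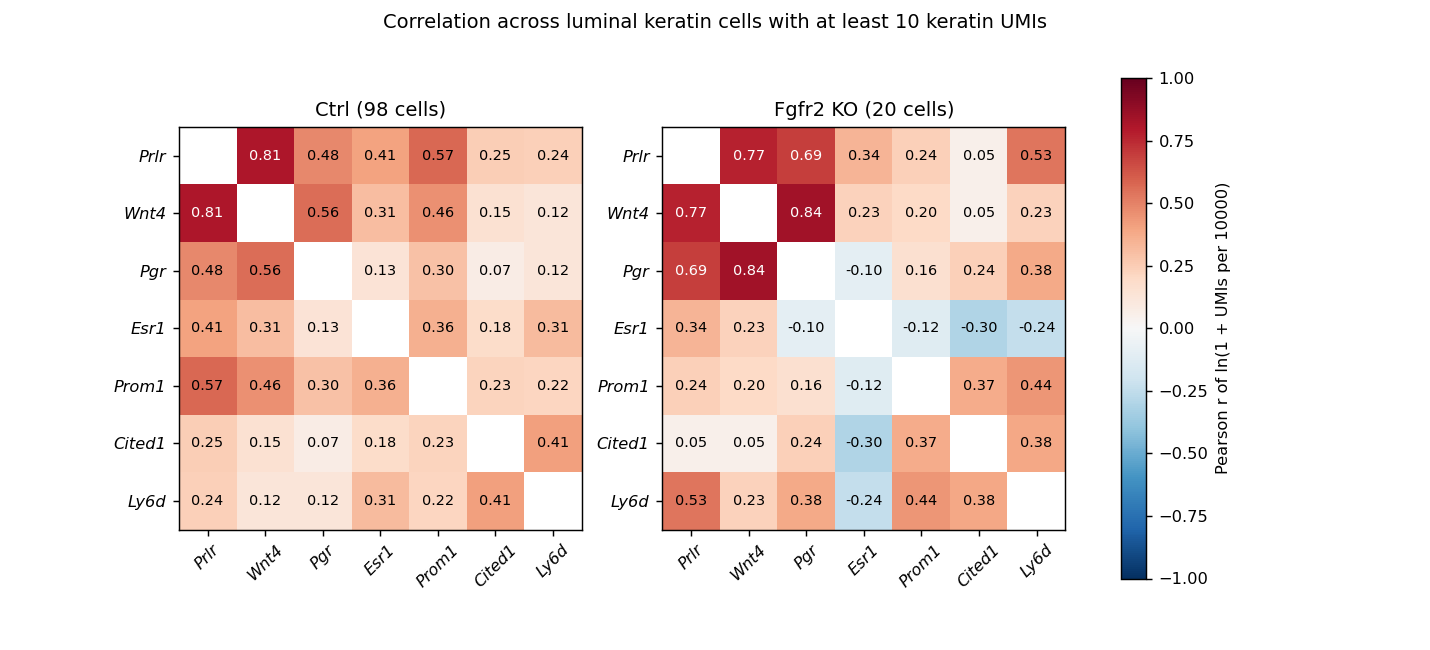
Pearson correlation of ln(1 + UMIs per 10000) between the 7 detected genes over luminal keratin cells with at least 10 keratin UMIs, in Ctrl (98 cells, left) and Fgfr2 KO (20 cells, right). Prlr and Wnt4 have the deepest red square in Ctrl, r = 0.81, while Esr1 and Pgr stand at 0.13.

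The genes whose levels followed each of the set most closely in the 117 Ctrl cells were then ranked among 5361 genes. For Prlr they were Slc12a2, a sodium, potassium and chloride cotransporter (r = 0.85), Fam25c (0.84) and Wnt4 (0.82), and in the 31 Fgfr2 KO cells the same genes had r = 0.82, 0.75 and 0.79. For Wnt4 they were Fam25c (0.84), Prlr and Wnt5a, another Wnt ligand (0.80), with 0.86 for Wnt5a in Fgfr2 KO. For Pgr they were Sprr1a, a cornified envelope protein (0.59), Wnt4 (0.58) and Slc12a2 (0.54). For Prom1 they were Tmem56 (0.58), which was also among the closest to Cited1, Prlr (0.58) and Slc12a2 (0.56). Slc12a2 stood at 237 CPM in luminal against 19.3 CPM in basal keratin cells of Ctrl.

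Of the genes that followed Cited1 and Ly6d, the closest to both was Cldn10, a tight junction claudin, with r = 0.75 to Cited1 and 0.51 to Ly6d in Ctrl, and 0.72 and 0.73 in Fgfr2 KO. After it came Upk3a (0.66) and Tmem56 (0.60) for Cited1, and Rab25 (0.50) and Cdo1 (0.50) for Ly6d. The genes closest to Esr1, with Slc12a2 at 0.47, Pdcd4 at 0.45 and Il33 at 0.44, were less stable, since in the Fgfr2 KO cells, which held 2 Esr1 UMIs, r was -0.10, 0.30 and 0.08.

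The promoters of Prlr, Wnt4 and Pgr are shown because these 3 genes varied together from cell to cell. Each runs from 250 bases before to 50 bases after an annotated transcript start, as RefSeq gives it for GRCm38.p6, on the plus strand, and the gene's own RNA is read in this direction. Capitals mark matches on either strand to 4 motifs, namely the oestrogen response element (GGTCA and TGACC with any 3 bases between), the STAT5 site TTCNNNGAA, the progesterone receptor half-site TGTTCT and the forkhead site TGTTTAC. The Prlr promoter shown is 1 of 3 and lies at chr15:10223656-10223955, that of Wnt4 at chr4:137277385-137277684 and that of Pgr at chr9:8899583-8899882.
Prlr: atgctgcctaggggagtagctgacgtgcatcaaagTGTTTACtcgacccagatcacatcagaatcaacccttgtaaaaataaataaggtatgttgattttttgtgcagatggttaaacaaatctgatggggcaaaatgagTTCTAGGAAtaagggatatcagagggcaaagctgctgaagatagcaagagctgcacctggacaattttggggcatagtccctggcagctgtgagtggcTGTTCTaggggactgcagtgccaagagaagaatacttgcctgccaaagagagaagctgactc
Wnt4: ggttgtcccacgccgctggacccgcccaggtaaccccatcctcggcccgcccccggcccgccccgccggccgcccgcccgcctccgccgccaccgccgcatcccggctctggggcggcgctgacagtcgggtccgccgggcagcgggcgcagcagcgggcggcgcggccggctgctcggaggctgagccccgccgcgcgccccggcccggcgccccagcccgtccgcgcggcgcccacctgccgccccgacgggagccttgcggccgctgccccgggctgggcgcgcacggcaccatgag
Pgr: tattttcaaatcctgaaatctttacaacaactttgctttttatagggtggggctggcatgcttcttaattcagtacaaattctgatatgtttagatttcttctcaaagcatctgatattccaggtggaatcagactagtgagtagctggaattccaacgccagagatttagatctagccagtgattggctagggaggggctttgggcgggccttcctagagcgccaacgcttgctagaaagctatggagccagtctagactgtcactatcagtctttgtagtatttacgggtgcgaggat

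The Prlr promoter shown was chosen for its matches, a forkhead site, a STAT5 site and a progesterone receptor half-site, and the other 2 Prlr promoters hold none of the 4 motifs. The Wnt4 and Pgr promoters hold none either. Over all 32851 RefSeq promoters of this length, 3.65% hold the forkhead site, 8.30% the STAT5 site, 19.0% the half-site and 0.0700% the full oestrogen response element. The 13 promoters of 7 of the 8 genes include 2 with a STAT5 site, in Esr1 and Prlr, and none with the oestrogen response element. The Wnt4 promoter is a CpG island by composition, with 84.3% GC and 51 CpG dinucleotides, where the median promoter has 52.7% GC and 7 CpG. A match is a description of letters, and binding was not measured.

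The other genes lie at chr10:4611593-5005614 (Esr1, plus strand), chrX:102247381-102252181 (Cited1, minus), chr15:74762056-74763620 (Ly6d, minus), chr5:43993620-44102032 (Prom1, minus) and chr14:78277445-78308043 (Tnfsf11, minus) in GRCm38. Each is annotated as protein-coding. Prlr, at chr15:10177238-10349180 on the plus strand, overlaps the gene model Gm21973, which had 1 UMI in the table, so Prlr reads were hardly split between them.

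Luminal keratin cells with a receptor UMI also differed from those without one in genes that the receptors did not choose. Among cells with at least 10 keratin UMIs, 68 of Ctrl had a UMI of Esr1, Pgr or Prlr and 30 had none, at median depths of 23695 and 21604 UMIs. Of 8560 genes, 6.88% were called higher and 4.88% lower in the cells with a receptor UMI. The 4 remaining detected genes of the set were higher, with log2 ratios of 3.69 (2.79 to 4.76) for Wnt4, 3.61 (1.69 to 6.69) for Prom1, 2.83 (2.31 to 3.39) for Cited1 and 1.03 (0.78 to 1.28) for Ly6d. In the 30 cells without a receptor UMI, 1 cell held 74 of 163 Ly6d UMIs and 23 of 32 Cited1 UMIs were in 1 cell. The 3 receptors differ by construction.

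Of the hormone-sensing markers, 5 of 7 with enough UMIs were higher in the Ctrl cells that had a receptor UMI. Over all genes, 6.88% were called higher and 4.88% lower in this split. Areg stood at 898 CPM in cells with a receptor UMI and 61.3 CPM in cells without, a log2 ratio of 3.87 (3.46 to 4.31). Foxa1 stood at 119 against 31.3 CPM, a log2 ratio of 1.93 (1.33 to 2.59), and Stc2 had a log2 ratio of 4.09 (2.85 to 5.73). Of 9 progenitor and alveolar markers, 3 were higher, among them Lalba, a milk protein, with 2.66 (1.23 to 4.59), and 1 was lower. The lower one was Aldh1a3, an aldehyde dehydrogenase of luminal progenitors, with 25.7 against 76.3 CPM and a log2 ratio of -1.57 (-2.15 to -1.0). Elf5 did not separate the cells, with 0.34 (-0.43 to 1.18).

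In Fgfr2 KO the same split gave 12 cells with and 8 without a receptor UMI, where 14.8% of 3383 genes were called higher and 7.72% lower. Of 6 hormone-sensing markers with enough UMIs, 3 were higher in the cells with a receptor UMI (Areg, Ly6a and Stc2) and 2 were lower (Cited4 and Foxa1). Wnt4 and Ly6d were again higher in cells with a receptor UMI, with log2 ratios of 3.19 (1.56 to 5.51) and 1.63 (1.24 to 2.05). Areg was also higher, with 227 UMIs in the 12 cells and 2 in the 8 others. Cited1 had the opposite sign, 306 against 690 CPM and a log2 ratio of -1.17 (-1.55 to -0.79). It was found in 8 of the 12 cells with a receptor UMI and in 6 of the 8 without, of which none held more than 37 of the 129 UMIs, whereas in Ctrl it was found in 39 of 68 and 9 of 30. Foxa1 was lower as well, with -1.39 (-2.11 to -0.68). Whether these values differ from Ctrl beyond the variation between transplants was not tested.

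**Figure D4:**
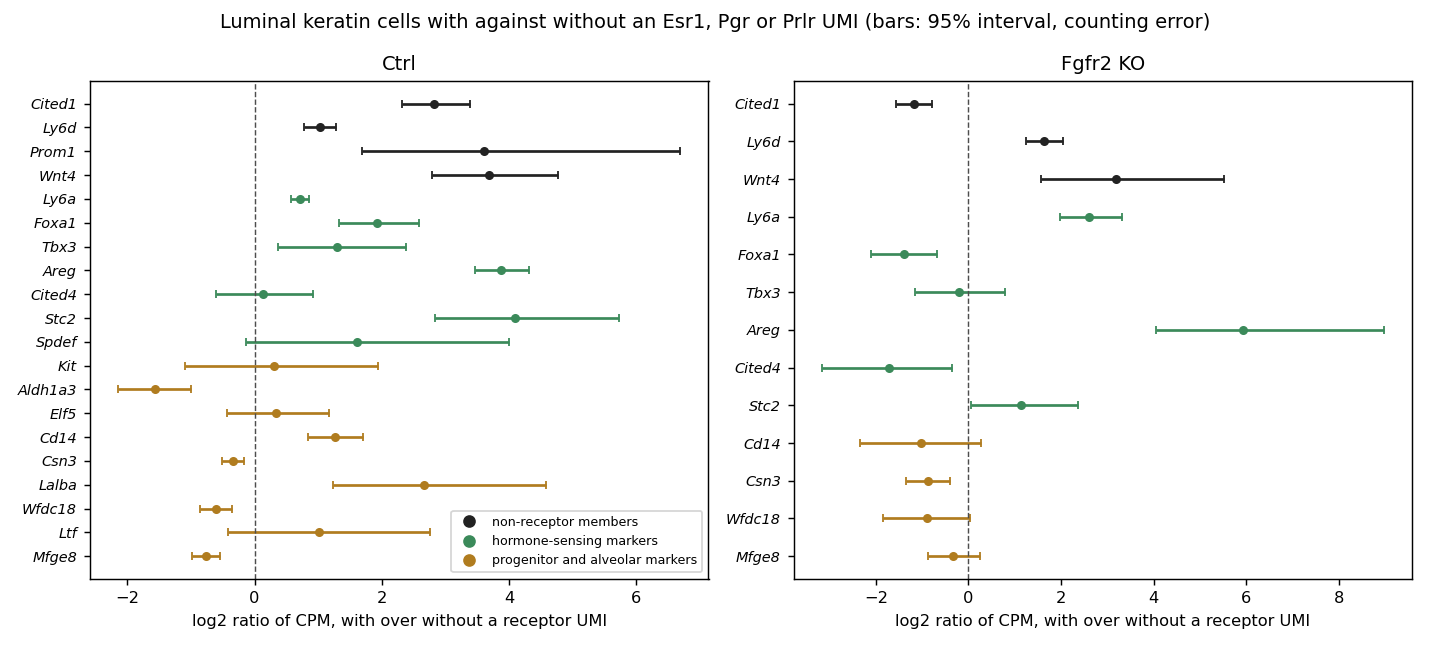
Log2 ratio of CPM in luminal keratin cells with over without an Esr1, Pgr or Prlr UMI (at least 10 keratin UMIs), for the non-receptor genes of the set (black), hormone-sensing markers (green) and progenitor and alveolar markers (ochre), with 95% counting intervals, in Ctrl (left) and Fgfr2 KO (right). Cited1 lies at 2.83 in Ctrl and at -1.17 in Fgfr2 KO, while Wnt4 lies at 3.69 and 3.19.

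Between the libraries, the luminal keratin cells differed by at least 2-fold in 2 of the 7 genes with enough UMIs. Ly6d was higher and Esr1 was lower in Fgfr2 KO, where 4.06% of 9459 genes were called higher and 8.58% lower. The median log2 ratio of the 7 genes was -0.31, against -0.06 over those genes. With 1 library per group, the genotype of the basal cells, the transplants and the library cannot be told apart.

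Esr1 was lower in Fgfr2 KO by the widest margin of the 7 genes, with 2 UMIs in 31 luminal keratin cells of Fgfr2 KO, or 3.24 CPM (0.393 to 11.7), against 20.9 CPM in Ctrl. The log2 ratio was -2.69 (-5.77 to -0.77) and lay between -3.49 and -1.78 under the alternatives tried. Without cells of at least 5 immune, fibroblast or endothelial UMIs it rested on 1 against 3 UMIs, too few for a call. Its interval there, -9.13 to 0.22, included 0. The share of cells with an Esr1 UMI was 6.45% in Fgfr2 KO and 29.1% in Ctrl, but after thinning it was 5.21% against 11.8%.

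Pgr had a log2 ratio of -0.94 (-2.12 to 0.05), and whether it passed 2-fold depended on the cells used. It was -0.59 (-1.85 to 0.46) without GFP-high cells, but -1.14 (-2.32 to -0.13) with a 3-fold keratin excess, -1.25 (-2.61 to -0.14) without the cell richest in the 8 genes in each library, and -1.31 as a mean over cells. Without cells of at least 5 immune, fibroblast or endothelial UMIs it was -2.83 (-6.30 to -0.03). That value rests on 2 UMIs in 16 Fgfr2 KO cells against 4 in 8 Ctrl cells, too few for a call. Prlr had a log2 ratio of -0.23 (-0.53 to 0.05), and it was -0.77 as a mean over cells, -0.49 (-0.79 to -0.20) with a 3-fold keratin excess and -0.49 (-0.82 to -0.18) without the cell richest in the 8 genes. Its share of cells was 41.9% in Fgfr2 KO and 51.3% in Ctrl before thinning, and 37.3% and 37.6% after thinning, for which 7 of 31 and 8 of 117 cells were too shallow. In cells that held a Prlr UMI its level was 332 CPM in Fgfr2 KO and 394 CPM in Ctrl. Prom1, with -0.37 (-1.50 to 0.61), and Wnt4, with -0.31 (-0.75 to 0.11), had intervals that include 0 as well, although Wnt4 was found in fewer cells, 22.6% against 44.4% before and 20.2% against 32.8% after thinning. A single Fgfr2 KO cell held 19 of the 54 Wnt4 UMIs. The Wnt4 ratio passed the 2-fold call with -1.0 as a mean over cells and with -2.12 (-3.57 to -0.72) in the 8 Ctrl and 16 Fgfr2 KO cells with fewer than 5 immune, fibroblast and endothelial UMIs, and it was -0.49 (-0.94 to -0.07) with a 3-fold keratin excess.

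Ly6d and Cited1 were the genes with more RNA in the Fgfr2 KO luminal keratin cells. Ly6d stood at 673 against 329 CPM, a log2 ratio of 1.03 (0.86 to 1.20). It was found in 61.3% of Fgfr2 KO and 61.5% of Ctrl cells. With at least 10 keratin UMIs it was found in 18 of 20 (90%) and 69 of 98 (70.4%). In the cells that held it the level was 820 against 474 CPM. At 2.04-fold this was just past the call, which ended with 0.98 without GFP-high cells, 0.98 with no Ptprc filter or with a minimum of 2 Ptprc UMIs, 0.86 with a 3-fold keratin excess, 0.86 without the cell richest in the 8 genes in each library, 0.70 as a mean over cells, and 0.10 (-0.28 to 0.49) in the 8 Ctrl and 16 Fgfr2 KO cells with fewer than 5 immune, fibroblast and endothelial UMIs. Cited1 stood at 384 against 196 CPM, a log2 ratio of 0.97 (0.74 to 1.19), and at 1.96-fold it was just short of the 2-fold call. Its thinned share of cells was 53.6% in Fgfr2 KO and 30.2% in Ctrl, and its ratio ranged from 0.67 to 1.79 over the other definitions. Among these, the ratio passed the call with 1.19 with no Ptprc filter or with a minimum of 2 Ptprc UMIs. It also passed with 1.07 with at least 10 keratin UMIs, but was 0.67 with a 3-fold keratin excess.

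**Figure D5:**
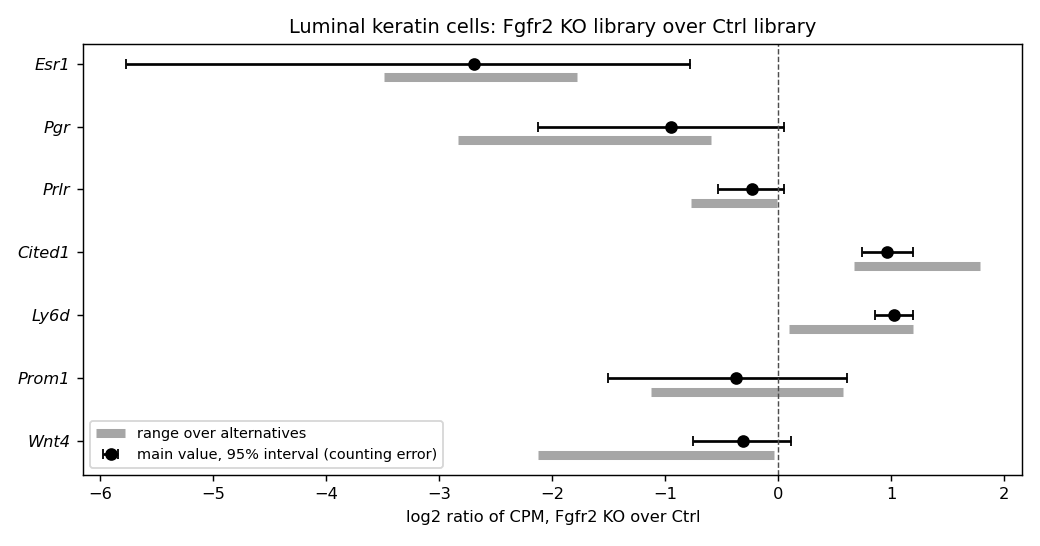
Log2 ratio of CPM in luminal keratin cells, Fgfr2 KO over Ctrl, for the 7 detected genes, with the 95% counting interval (black) and the range over other cell definitions (grey). Esr1 lies at -2.69 with a grey range from -3.49 to -1.78, and Ly6d lies at 1.03 with a grey range that reaches down to 0.10.

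In the basal keratin cells, 2 genes of the set had enough UMIs to compare the libraries. Wnt4 was lower in Fgfr2 KO, with 2 UMIs or 6.26 CPM (0.758 to 22.6) against 47 UMIs or 36.3 CPM in Ctrl, a log2 ratio of -2.53 (-5.62 to -0.60). This was 5.80-fold lower, in a comparison where 11.2% of 6863 genes were called lower and 4.36% higher, and the ratio ranged from -3.10 to -2.29 over the alternatives that gave one. The difference was not seen in the 14 Ctrl and 16 Fgfr2 KO basal keratin cells with fewer than 5 immune, fibroblast and endothelial UMIs, which held 0 and 1 Wnt4 UMIs, and a count of 0 there allows up to 21.2 CPM in Ctrl. Markers of other cells differed in the basal keratin class too, with fibroblast markers at 1107 CPM in the Ctrl library and 37.6 CPM in the other, and luminal markers at 2144 and 1327 CPM. Without cells in which immune, fibroblast and endothelial markers exceeded 0.5% of UMIs the Wnt4 ratio was -2.55 (-5.64 to -0.62), and with a 3-fold keratin excess it was -3.10 (-8.46 to -0.50). Ly6d stood at 93.9 CPM (63.4 to 134) against 158 CPM, a log2 ratio of -0.75 (-1.36 to -0.20), short of the 2-fold call, but it passed the call with -2.63 when the basal keratins had to exceed the luminal ones 3-fold, with -2.06 without cells of at least 5 immune, fibroblast or endothelial UMIs, and with -1.39 as a mean over cells. Without a Ptprc filter it was -0.43 (-1.04 to 0.12).

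The related genes were compared between the luminal keratin cells of the libraries in the same way, against the 4.06% of genes called higher and 8.58% called lower. Among 10 other hormone receptors with enough UMIs, none was higher and 2 were lower in Fgfr2 KO, with a median log2 ratio of -0.03. The highest of these receptors in Fgfr2 KO, Thra, stood at 30.8 CPM against 19.5 CPM in Ctrl, a log2 ratio of 0.66 (-0.18 to 1.43). Rarg was among the lower ones, with a log2 ratio of -1.65 (-3.00 to -0.55). Of 20 partners and targets, 2 were higher and 2 lower, with a median of 0.00. Tbx3 was higher, 69.7 against 27.3 CPM with a log2 ratio of 1.35 (0.78 to 1.91), and the Wnt receptor Fzd2 was lower with -1.55 (-2.71 to -0.57). Areg was 371 CPM in Fgfr2 KO and 602 CPM in Ctrl, a log2 ratio of -0.70 (-0.90 to -0.50) that did not reach 2-fold, and the cyclin gene Ccnd1 was 378 and 310 CPM.

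Of 9 progenitor and alveolar markers, 4 were lower in the Fgfr2 KO luminal keratin cells and none was higher, beside 8.58% and 4.06% of all genes, with a median log2 ratio of -0.94. Cd14 had -1.27 (-1.81 to -0.78) and Wfdc18, a whey acidic protein family member, had -1.49 (-1.97 to -1.04). The milk protein genes Lalba and Ltf, with 62 and 28 UMIs in the Ctrl cells, were at 0 in the other library, so they were at least 4.53-fold and 2.04-fold lower at a floor of 3 UMIs. Elf5 was close to the Ctrl level, with -0.11 (-1.02 to 0.70). The hormone-sensing markers had 2 of 7 higher and none lower, with a median of 0.48. The higher ones were Tbx3 and Spdef, an epithelial transcription factor with a log2 ratio of 1.61 (0.60 to 2.58).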

How the data were processed

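Transplanted cells were sorted by flow cytometry and sequenced by a droplet method, 1 library per group. Per the labels, Cell Ranger 2.1.1 aligned the reads to mm10. The study's methods also name Cell Ranger, with its aggr step to join libraries, and do not name the annotation. The authors deposited UMI counts per gene and cell, unnormalized, in 1 table that holds both libraries, with the group in the column name. Depth was 5458515 UMIs for Ctrl and 1253032 for Fgfr2 KO. The threshold of the authors' CD45 filter is not given in the sources used here, so cells with at least 1 Ptprc UMI were set aside. No other filter on cells was applied. Scrublet (scanpy 1.11.5) called 2 of 268 and 1 of 86 cells as doublets, and none was removed.

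Counts were summed per class and library and divided by the summed total. Levels have exact Poisson 95% intervals, ratios have exact intervals from the binomial split of their UMIs, and shares of cells have Clopper-Pearson intervals. All cover counting error only. A call was a 2-fold difference in a gene with at least 20 UMIs, and a count of 0 was set to a floor of 3 UMIs. Thinned shares are means over cells thinned to 6265 UMIs. Correlations used ln(1 + UMIs per 10000), and likeness was ranked over genes found in at least 10% of Ctrl luminal keratin cells at 20 CPM or more. The genes named were the 8, the 3 genes ranked closest to each that had at least 50 UMIs, and the listed genes of largest CPM. Further listed genes were named after their values were seen, and 1 listed gene is counted but not reported here. Positions are from GENCODE M21, which held 95.2% of the table's gene symbols. The calculations were tested on simulated data, and python 3.11.15, pandas 2.3.3 and scipy 1.17.1 were used. The genes and lists were chosen with earlier results of these data known. Other class rules, depth settings and cell filters were tried.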

Additional observations from a re-analysis of the deposited data

How the results depend on the processing

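No paired analysis was possible because each group has 1 library, and no library could be left out for the same reason. The limits are that the luminal keratin class of Fgfr2 KO has 31 cells, that Esr1, Pgr and Prom1 rest on 2, 9 and 10 UMIs there, and that counting error does not cover the variation between transplants. Summed over the set, the log2 ratio of luminal over basal keratin cells was 2.05 (1.87 to 2.23) in Ctrl and 3.28 (2.85 to 3.75) in Fgfr2 KO, that of Fgfr2 KO over Ctrl in luminal keratin cells was 0.56 (0.45 to 0.67), and none changed sign under an alternative. Requiring a 3-fold keratin excess gave 2.39, 4.35 and 0.34. Leaving out cells with at least 5 immune, fibroblast or endothelial UMIs gave 4.0 for Fgfr2 KO luminal over basal keratin cells and 0.14 (-0.16 to 0.45) between the libraries. Leaving out cells in which these lists exceeded 0.5% of UMIs, an alternative chosen after seeing the data, gave 0.70 between the libraries, and averaging over cells gave 0.20. Without the cell with the most UMIs of the set in each class, the Ctrl luminal over basal ratio was 2.37 and that between the libraries 0.41. The sum between the libraries was carried by Ly6d and Cited1, with 415 and 237 of the 845 Fgfr2 KO UMIs. The other detected genes had log2 ratios below 0, and the median of the 7 was -0.31. The share of Ctrl luminal keratin cells with a receptor UMI, 61.5%, was 43.9% thinned and 43.6% when 2 receptor UMIs were required. It was 75% (34.9 to 96.8) without cells of at least 5 immune, fibroblast or endothelial UMIs, in 6 of only 8 cells. With at least 10 keratin UMIs it was 69.4%. In Fgfr2 KO the share, 41.9%, ranged from 29.0% to 60% over the alternatives. Of 302 values for single genes, 283 moved by less than counting error, 19 by more, and none changed sign where the interval excluded 0. Ratios with 0 UMIs on a side have no value. Prom1 between the libraries, -0.37, ranged from -1.12 to 0.57.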

Other observations

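Among the CD45-positive cells of Fgfr2 KO, 1 cell stood apart in the genes of hormone response. It held 83994 UMIs, of which 1 was from Ptprc, 607 were from Krt8 and Krt18 and 13 were from the other immune markers. It contained 51 UMIs of Cited1, 27 of Prlr, 18 of Ly6d, 15 of Wnt4, 10 of Prom1, 2 of Pgr and 1 of Esr1, so that 7 genes of the set were detected in it. No luminal keratin cell of this library without a Ptprc UMI held 7 of them. When cells with 1 Ptprc UMI were kept, this cell among them, the log2 ratio of Prom1 between the libraries was 0.57 (-0.24 to 1.32).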
